A study of Mus musculus with 6 samples.

Results

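The genes described here are those of apelin and adrenomedullin signalling, a pair of peptide systems that act on the vessel wall. They were taken by gene symbol as Apln, Aplnr, Adm, Calcrl, Ramp1, Ramp2 and Ramp3, and all 7 were present among the 24411 genes of the count table. Bulk RNA-seq had been made from 2 mouse endothelial cell lines. UV2, which the labels also write as UV♀2, is given the strain (BALB/c x C57BL/6)F1, and bEnd.3, made from brain endothelium that polyomavirus middle T antigen had immortalised, is given the strain BALB/c. Each line had 3 libraries. All dishes had been grown to confluence and then held in serum-free medium for 3 days before harvest with trypsin-EDTA. Apart from the line and its strain, no agent or genotype differed by label between the dishes. The comparison is thus between 1 line and 1 other line, and the effects of line, strain, tissue of origin and immortalisation cannot be told apart.

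Apelin is a secreted peptide cut from the product of Apln. Its receptor, encoded by Aplnr, is a G protein-coupled receptor that couples to inhibitory G proteins and is used in vessel growth and in the control of vascular tone. Adrenomedullin, the product of Adm, is an amidated vasodilator peptide that keeps endothelial junctions tight and is needed for lymphatic development. Its receptor is built from the calcitonin receptor-like receptor, encoded by Calcrl, and a receptor activity-modifying protein (RAMP). With the product of Ramp1, Calcrl forms the receptor for calcitonin gene-related peptide (CGRP), and with the products of Ramp2 or Ramp3 it forms the adrenomedullin receptors. In endothelium Ramp2 is the RAMP known to be needed for vascular integrity. Apln marks tip cells of growing vessels, while Aplnr marks veins, and both Apln and Adm are known targets of hypoxia-inducible factors.

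Upstream sequences are shown for 4 of the genes, because Apln and Calcrl were 2 of the genes with large differences between the lines while Adm and Ramp3 had small ones. They come from the RefSeq promoter table of GRCm38.p6, the assembly behind mm10, in which 5 of the 7 genes had an entry (Apln, Adm, Calcrl, Ramp1 and Ramp3). Each runs 5′ to 3′ on the gene's own strand up to the first base that either RefSeq or GENCODE places in the gene. Capitals mark letters found on either strand. The first motif searched was the core of the hypoxia-response element, ACGTG in one form and GCGTG in the other, and the form with G first reads CACGC where it lies on the opposite strand. The second motif was of ETS type, AGGAAG, and it reads CTTCCT on the opposite strand. The last was of GATA type, AGATAA, on either strand. The motifs do not overlap in these sequences.
Apln (chrX:48034854-48035103, minus strand): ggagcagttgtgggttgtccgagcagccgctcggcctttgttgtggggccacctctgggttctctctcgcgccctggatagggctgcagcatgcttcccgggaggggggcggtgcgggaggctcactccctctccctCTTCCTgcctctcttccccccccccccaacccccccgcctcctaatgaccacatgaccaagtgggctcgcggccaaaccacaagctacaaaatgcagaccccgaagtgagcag
Calcrl (chr2:84425412-84425516, minus strand): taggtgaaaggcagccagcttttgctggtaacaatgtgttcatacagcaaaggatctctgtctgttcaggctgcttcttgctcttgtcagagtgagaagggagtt
Adm (chr7:110627407-110627656, plus strand): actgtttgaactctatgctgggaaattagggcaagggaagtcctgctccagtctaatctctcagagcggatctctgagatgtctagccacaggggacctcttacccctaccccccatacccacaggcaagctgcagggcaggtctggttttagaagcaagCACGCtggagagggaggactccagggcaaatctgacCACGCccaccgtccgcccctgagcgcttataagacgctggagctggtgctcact
Ramp3 (chr11:6658283-6658505, plus strand): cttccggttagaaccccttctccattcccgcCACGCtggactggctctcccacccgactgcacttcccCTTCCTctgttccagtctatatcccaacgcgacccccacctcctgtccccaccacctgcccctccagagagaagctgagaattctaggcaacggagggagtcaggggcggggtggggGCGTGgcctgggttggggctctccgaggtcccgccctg
Within the 250 bases before the tabulated start, Adm held 2 hypoxia cores and Ramp3 held 2, all of the form GCGTG, and Apln, Calcrl and Ramp1 held 0. Of all 32851 promoters in the table, 38.6% held at least 1 core of either form in a window of that length. The AGGAAG letters were found at 1 place each in Apln, Calcrl and Ramp3, and 29.5% of all promoters held them. The Calcrl match lies downstream of its printed stretch, inside a first exon of the longer annotated transcript. The AGATAA letters were found at 0 places in the 5 genes with an entry, and 9.99% of all promoters held them. These are letter matches only, and no binding was measured.

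Total expected counts ran from 21306441 to 26769149 in UV2 and from 21944529 to 28748128 in bEnd.3. Levels are CPM, in which counts are put on a common total with TMM scaling factors, given for each library or as mean ± SD (n = 3 libraries). A log2 fold change is UV2 minus bEnd.3 and carries its standard error (SE). The quasi-likelihood test of edgeR gave the p-values, which were adjusted after Benjamini and Hochberg over all 12720 tested genes, and an adjusted p under 0.05 was a call. Whether the 3 libraries of each line stem from separate cultures is not labelled, so the tests speak of library-to-library spread, which may be technical. The summed level of 10 endothelial markers was 11756 to 13364 CPM in UV2 and 12033 to 12714 CPM in bEnd.3. Of the 10, 1 was higher in UV2 (Tie1), 4 were lower (Emcn, Erg, Egfl7 and Flt1) and 5 did not pass the test. The shares over all tested genes were 33.9% higher and 33.3% lower. Flt1 (log2 fold change -1.76) and Emcn (log2 fold change -1.47) were lower by more than 2-fold, the same direction as Apln, Aplnr and Calcrl. Of all tested genes, 8.81% were lower by more than 2-fold. The summed level of 5 leukocyte markers was 609 to 630 CPM in UV2 and 91.2 to 160.0 CPM in bEnd.3. It was carried by Cd68 and Lyz2, which were both called higher in UV2. Lyz2 stood at 330 ± 55.3 CPM in UV2 and 1.27 ± 0.392 CPM in bEnd.3 (log2 fold change 8.05). Cd68 stood at 285 ± 49.8 CPM in UV2 and 116 ± 37.2 CPM in bEnd.3 (log2 fold change 1.30). Csf1r did not pass the test, Ptprc held 0 counts in UV2 and Cd3e held 0 in every library. The summed levels of 6 mural, 5 fibroblast and 5 epithelial markers reached at most 6.12, 67.2 and 0.501 CPM in UV2 and 0.679, 3.46 and 0.0814 CPM in bEnd.3. Of these, Pdgfrb, Pdgfra and Col3a1 were called higher in UV2 (log2 fold changes 3.94, 2.39 and 5.13). The others had too few counts to be tested. The part of such markers in the results was not tested.

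Receptor genes were much lower in UV2, the apelin ligand gene was lower as well, and the genes for the adrenomedullin peptide and for Ramp2 did not pass the test. Aplnr was 35.6-fold lower in UV2 by the ratio of means, Calcrl was 6.16-fold lower and Apln 3.81-fold lower. Ramp3 was lower by a factor of 1.32. Ramp1 held 0 counts in all 6 libraries. The test covered 6 of the 7 genes, and each of the 6 had at least 27 counts in every library of both lines. By edgeR 4 of these 6 were lower in UV2 and 0 higher, also 0 at an unadjusted p under 0.05 and 0 in DESeq2 and limma-voom. Over all tested genes 67.1% were called, 33.3% lower and 33.9% higher. By more than 2-fold (edgeR's glmTreat), 3 of the 6 were lower, beside 8.81% of all tested genes lower and 19.4% called in either direction. At 4 of the 6 genes, a share of 66.7%, no UV2 library fell within the range of bEnd.3, and the same held for 73.2% of all tested genes. The median log2 fold change of the 6 genes was -1.22, beside -0.01 over all tested genes. In bulk RNA, fewer cells that express a gene and less RNA per cell cannot be told apart.

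**Figure D1:**
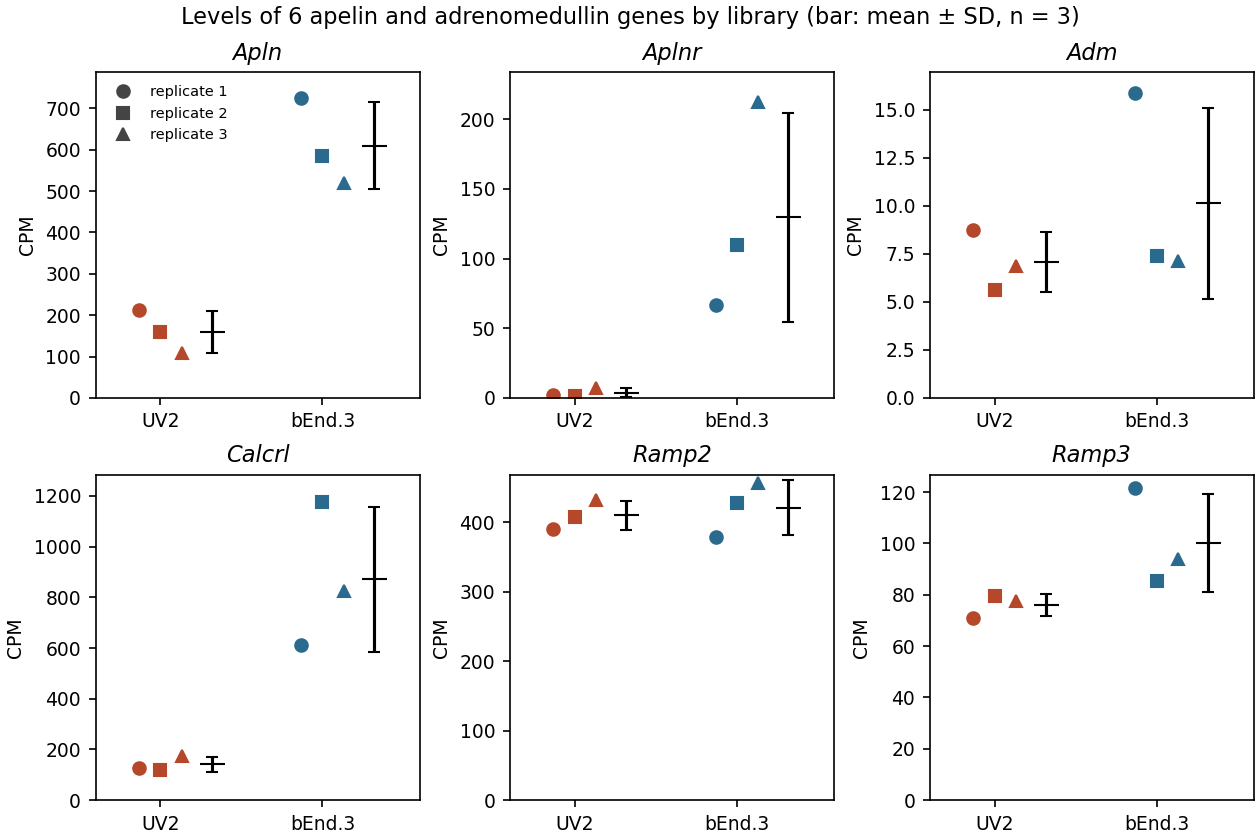
CPM of the 6 detected genes in each library, with UV2 in red on the left and bEnd.3 in blue on the right of each panel. Points are libraries, marked by replicate number, and bars are mean ± SD (n = 3). The lines are apart for Apln, Aplnr, Calcrl and Ramp3 and overlap for Adm and Ramp2.

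Apln encodes the apelin precursor on the X chromosome (GRCm38 chrX:48025146-48034853, minus strand). It stood at 212, 159 and 109.5 CPM in UV2 replicates 1, 2 and 3, against 726, 585 and 518 CPM in bEnd.3 replicates 1, 2 and 3. Every UV2 library was below every bEnd.3 library, and replicate 1 was the highest in both lines. The means were 159.9 ± 51.1 CPM in UV2 and 609.7 ± 106 CPM in bEnd.3, a log2 fold change of -1.93 (SE 0.24, adjusted p = 0.000212). Apln fell by more than 2-fold in UV2 (glmTreat adjusted p = 0.00382). The median log2 fold change of the 289 X-linked genes with an average log2 CPM above 3 was 0.07, against the -1.93 of Apln.

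Aplnr encodes the apelin receptor (GRCm38 chr2:85136225-85139923, plus strand). UV2 libraries held 51, 27 and 194 Aplnr counts, which is 2.15, 1.31 and 7.48 CPM in replicates 1, 2 and 3, against 66.5, 109.8 and 213 CPM in the same order in bEnd.3. The highest UV2 library lay far below the lowest bEnd.3 library, and replicate 3 was the highest in both lines. The log2 fold change was -5.11 (SE 0.66, adjusted p = 0.000275), with means of 3.65 ± 3.34 CPM in UV2 and 129.6 ± 75.0 CPM in bEnd.3. Aplnr was the most variable of the 6 genes within a line, with a coefficient of variation of 91.7% in UV2 and 57.9% in bEnd.3. Leaving out UV2 replicate 3 gave a log2 fold change of -6.20, and Aplnr was called whichever library was left out. The transcript was present at a low level in every UV2 library.

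Set per length, the apelin ligand gene exceeded its receptor gene in both lines. CPM was divided by the length of the longest coding transcript in GENCODE M21, since levels of different genes can be compared only per length. The ratio of Apln to Aplnr on this scale was 115.5, 142 and 17.2 in UV2 replicates 1, 2 and 3, against 12.8, 6.26 and 2.87 in bEnd.3 replicates 1, 2 and 3. The lowest UV2 value, in replicate 3, was above the highest bEnd.3 value, in replicate 1. For adrenomedullin the order was the reverse, and the ratio of Adm to Calcrl was 0.241, 0.163 and 0.137 in UV2 replicates 1, 2 and 3, against 0.0911, 0.0220 and 0.0304 in bEnd.3 replicates 1, 2 and 3. Every library was below 1, and each UV2 value was above each bEnd.3 value. These ratios were formed after the values of the genes were seen and have no test of their own.

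Adm encodes preproadrenomedullin (GRCm38 chr7:110627661-110629820, plus strand). It was low in both lines, at 8.74, 5.62 and 6.86 CPM in UV2 replicates 1, 2 and 3, against 15.9, 7.37 and 7.13 CPM in bEnd.3 replicates 1, 2 and 3. The lines overlapped, and bEnd.3 replicate 1 stood apart as the highest library. The means were 7.07 ± 1.57 CPM in UV2 and 10.1 ± 4.98 CPM in bEnd.3 (log2 fold change -0.51, SE 0.33, adjusted p = 0.208). The 95% interval of the log2 fold change ran from -1.275 to 0.26, so a difference of up to more than 2-fold downward is within it. Without bEnd.3 replicate 1 the log2 fold change was -0.03. An antisense gene, Gm28863, overlaps Adm on the opposite strand in GENCODE M21, and the strand setting of the counting is not given in the sources used here, so Adm is uncertain to that extent.

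Calcrl encodes the receptor shared by adrenomedullin and CGRP (GRCm38 chr2:84330626-84425411, minus strand). Its level was 127, 121 and 176 CPM in UV2 replicates 1, 2 and 3, against 612, 1178 and 824 CPM in bEnd.3 replicates 1, 2 and 3. All UV2 libraries were well below all bEnd.3 libraries. The means were 141 ± 30.1 CPM in UV2 and 871 ± 286 CPM in bEnd.3, a log2 fold change of -2.62 (SE 0.26, adjusted p = 6.45e-05). The change passed beyond 2-fold (glmTreat adjusted p = 0.000465). Calcrl and Aplnr share chromosome 2, where the median log2 fold change of the 750 genes above the same level was -0.27. It was -0.25 over 659 genes of chromosome 7, which holds Adm. On chromosome 11, which holds Ramp2 and Ramp3, it was -0.09 over 777 genes. The part of such chromosome medians in the differences was not tested.

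**Figure D2:**
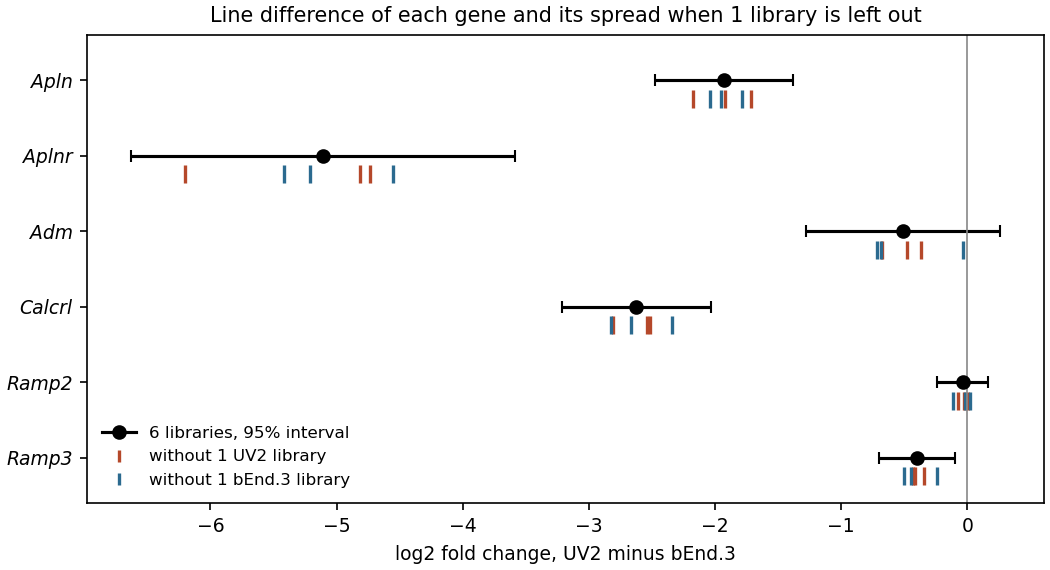
Log2 fold change, UV2 minus bEnd.3, of the 6 tested genes, with 95% intervals from the fit of all 6 libraries in black. Ticks under each interval are the values with 1 UV2 library (red) or 1 bEnd.3 library (blue) left out. Apln, Aplnr and Calcrl lie between -6.20 and -1.72 whichever library is left out, while the ticks of Ramp2 fall on both sides of 0.

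Ramp2 encodes the RAMP of the main endothelial adrenomedullin receptor (GRCm38 chr11:101246028-101259546, plus strand). It was abundant and close to level between the lines, with 391, 408 and 432 CPM in UV2 replicates 1, 2 and 3, against 378, 427 and 457 CPM in bEnd.3 replicates 1, 2 and 3. The ranges of the lines overlapped almost fully. Its log2 fold change was -0.04 (SE 0.09, adjusted p = 0.722), with a 95% interval from -0.24 to 0.16. Means were 410.2 ± 20.8 CPM in UV2 and 421 ± 39.6 CPM in bEnd.3, and its within-line variation was the smallest of the 6 genes, at 5.08% in UV2 and 9.42% in bEnd.3. An annotated Ramp2 transcript runs on into Vps25 on the same strand. The deposited Ramp2 values were whole numbers in every library, but so were those of the other apelin and adrenomedullin genes taken by symbol. Whole numbers therefore cannot show whether reads were shared between Ramp2 and Vps25, and such sharing was not tested.

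Ramp3 encodes the RAMP of the other adrenomedullin receptor form (GRCm38 chr11:6658521-6677475, plus strand). It had 71.04, 79.5 and 77.6 CPM in UV2 replicates 1, 2 and 3, against 122, 85.3 and 93.9 CPM in bEnd.3 replicates 1, 2 and 3. The lines did not overlap, but the highest UV2 library and the lowest bEnd.3 library were close. The means were 76.05 ± 4.44 CPM in UV2 and 100.3 ± 19.1 CPM in bEnd.3 (log2 fold change -0.40, SE 0.13, adjusted p = 0.0259). The call was lost without UV2 replicate 1 (adjusted p = 0.0975), without UV2 replicate 2 (adjusted p = 0.0535) and without UV2 replicate 3 (adjusted p = 0.0518). The log2 fold change without bEnd.3 replicate 1 was -0.24, still called. A transcribed processed pseudogene, Gm11978, overlaps Ramp3 on the opposite strand in GENCODE M21. As the strand setting of the counting is not given, Ramp3 is uncertain to that extent.

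Ramp1, the RAMP of the CGRP receptor (GRCm38 chr1:91179822-91225196, plus strand), had 0 counts in all 6 libraries and was not tested. A count of 0 allows up to 3 counts over the libraries of a line, which is 0.0427 CPM in UV2 and 0.0393 CPM in bEnd.3. Such limits cover counting error only, since sequenced reads are not independent molecules.

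The RAMP pool was made up of Ramp2 and Ramp3. Per length, Ramp2 made up 85.2%, 84.3% and 85.4% of RAMP transcripts in UV2 replicates 1, 2 and 3, against 76.5%, 84.0% and 83.6% in bEnd.3 replicates 1, 2 and 3. The lines did not overlap, yet only bEnd.3 replicate 1 was far from the other libraries. The mean share was 84.95% ± 0.574 in UV2 and 81.4% ± 4.22 in bEnd.3, a difference of 3.60 percentage points (exact two-sided permutation p = 0.1, the smallest that 3 against 3 libraries allow). Without bEnd.3 replicate 1 the difference was 1.17 percentage points. RAMP transcripts outnumbered Calcrl transcripts in every library on this scale. The ratio of summed RAMP to Calcrl was 14.9, 16.6 and 11.9 in UV2 replicates 1, 2 and 3, against 3.35, 1.79 and 2.75 in bEnd.3 replicates 1, 2 and 3. All UV2 values were above all bEnd.3 values, with means of 14.5 ± 2.36 in UV2 and 2.63 ± 0.787 in bEnd.3 (exact two-sided permutation p = 0.1). The RAMP sum itself was 410 ± 20.3 CPM per kb in UV2 and 439 ± 22.7 CPM per kb in bEnd.3. The ratio thus mostly restates the Calcrl difference, and its p-value adds no separate result.

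**Figure D3:**
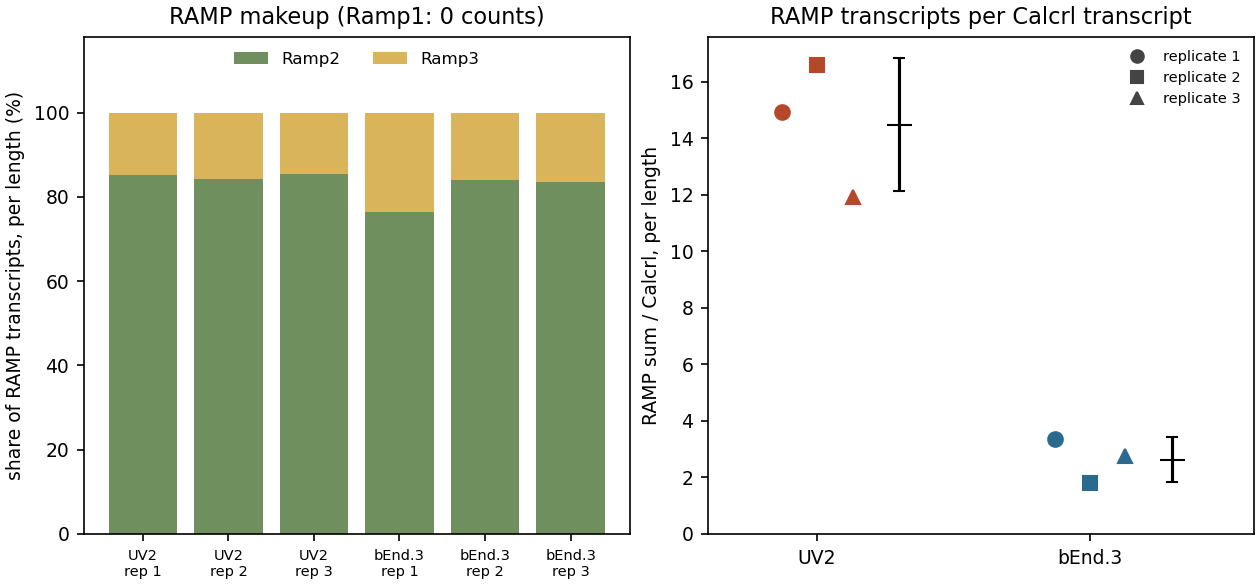
Left, share of Ramp2 and Ramp3 in all RAMP transcripts per length (%) in each library, as stacked bars that start at 0. Right, the ratio of summed RAMP level to Calcrl level per length, with libraries as points and mean ± SD (n = 3) as bars, UV2 in red and bEnd.3 in blue. Ramp2 is at least 76.5% of the pool in every library, and the ratio to Calcrl is 11.9 to 16.6 in UV2 and 1.79 to 3.35 in bEnd.3.

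The order of the levels per length differed between the lines. In UV2 the order from high to low was Ramp2 (348 ± 17.7 CPM per kb), Ramp3 (61.7 ± 3.60 CPM per kb), Apln (50.8 ± 16.2 CPM per kb), Calcrl (28.96 ± 6.16 CPM per kb), Adm (5.09 ± 1.13 CPM per kb) and Aplnr (0.986 ± 0.904 CPM per kb). Among these neighbours the libraries of Ramp3 and Apln overlapped, as did those of Apln and Calcrl, and the others were apart. In bEnd.3 the order was Ramp2 (357 ± 33.6 CPM per kb), Apln (194 ± 33.6 CPM per kb), Calcrl (178 ± 58.6 CPM per kb), Ramp3 (81.4 ± 15.5 CPM per kb), Aplnr (35.05 ± 20.3 CPM per kb) and Adm (7.28 ± 3.58 CPM per kb). There only Apln and Calcrl overlapped. Aplnr thus stood above Adm in bEnd.3 and below it in UV2. The lengths used were 1178 bases for Ramp2, 1233 for Ramp3, 3149 for Apln, 4882 for Calcrl, 1390 for Adm and 3699 for Aplnr, and the authors' annotation may differ.

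**Figure D4:**
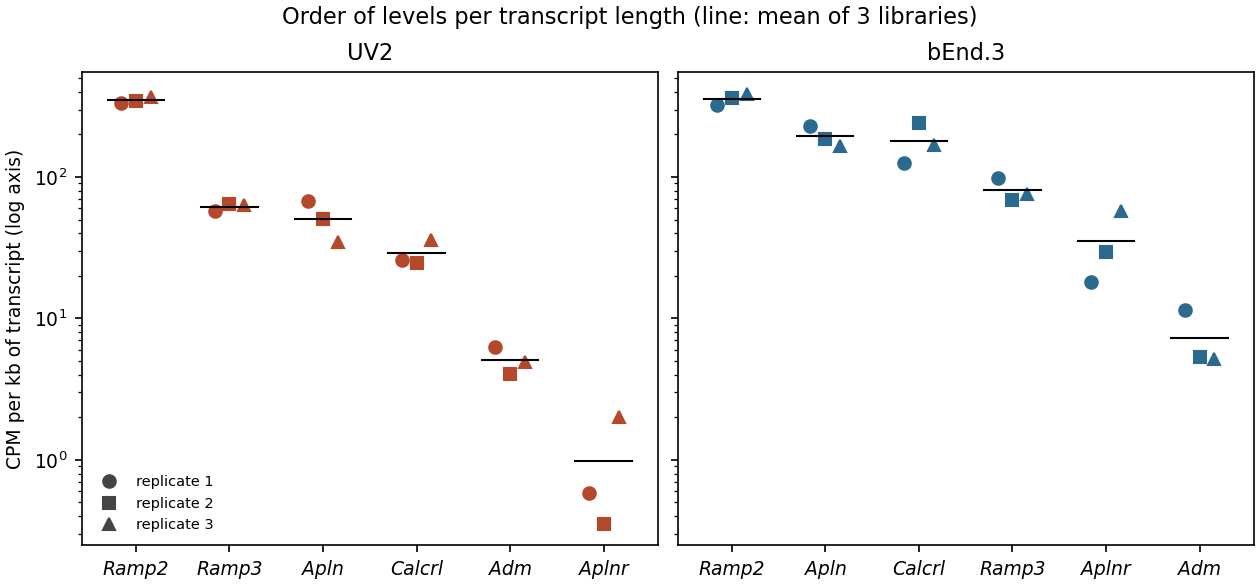
Level per transcript length (CPM per kb, log axis) of the 6 detected genes, ordered from high to low within UV2 (left, red) and bEnd.3 (right, blue). Points are libraries and lines are means of 3 libraries. Ramp2 leads in both lines, and Aplnr is last in UV2, at 0.354 to 2.02 CPM per kb, and above Adm in bEnd.3, at 18.0 to 57.5 CPM per kb.

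Other ligands and receptors that share these pathways were mostly at or near 0 counts, apart from a pair of atypical receptors that went opposite ways. Apela, a second ligand of the apelin receptor, held 0 counts in every library, as did the calcitonin receptor gene Calcr and the amylin gene Iapp. The adrenomedullin-like ligand Adm2 had 0, 1 and 6 counts in UV2 replicates 1, 2 and 3 and 2, 0 and 2 counts in bEnd.3 replicates 1, 2 and 3. The CGRP gene Calca had 0 counts in UV2 and 1 count in bEnd.3. Calcb, the other CGRP gene, was at 0.933 ± 0.177 CPM in UV2 and 1.02 ± 0.478 CPM in bEnd.3 and did not pass the test (log2 fold change -0.11, SE 0.41, adjusted p = 0.816).

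Gpr182 encodes an atypical receptor that was once proposed to bind adrenomedullin. It had 0.507, 0.242 and 0.694 CPM in UV2 replicates 1, 2 and 3, against 21.2, 34.3 and 62.1 CPM in bEnd.3 replicates 1, 2 and 3. The lines were far apart, and replicate 3 was the highest in both, as for Aplnr. Its log2 fold change was -6.30 (SE 0.53, adjusted p = 3.10e-05). Ackr3, an atypical chemokine receptor that also takes up adrenomedullin, went the other way, with 184, 184 and 196 CPM in UV2 and 71.7, 93.4 and 71.0 CPM in bEnd.3. Every UV2 library was above every bEnd.3 library (log2 fold change 1.26, SE 0.11, adjusted p = 4.40e-05).

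Over the wider list of 42 genes for ligands, receptors, peptide processing and clearance, G proteins, adenylyl cyclases and desensitisation, 28 were tested. UV2 was higher at 10, lower at 7 and neither at 11, beside 33.9% higher and 33.3% lower over all tested genes. The median log2 fold change of the list was -0.10, against -0.01 over all tested genes.

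Of 5 tested genes for peptide processing, UV2 was higher at 1, lower at 1 and neither at 3. The shares over all tested genes were 33.9% higher and 33.3% lower. Of 5 genes for peptide clearance, 1 was tested. Furin, a proprotein convertase, rose to 939.8 ± 152 CPM in UV2, against 225 ± 33.0 CPM in bEnd.3 (log2 fold change 2.06, SE 0.15, adjusted p = 1.53e-05). Pcsk6, another convertase, fell to 119 ± 32.8 CPM in UV2, against 399 ± 152 CPM in bEnd.3 (log2 fold change -1.74, SE 0.32, adjusted p = 0.00166). Pam, the enzyme that amidates adrenomedullin, did not pass the test, with 145 ± 21.8 CPM in UV2 and 138 ± 12.6 CPM in bEnd.3 (adjusted p = 0.628). Neither did Pcsk7 (adjusted p = 0.286) or Cpe (adjusted p = 0.347). Ece1, the endothelin-converting enzyme, which also cuts other vasoactive peptides, rose to 1331 ± 57.6 CPM in UV2, against 409 ± 16.2 CPM in bEnd.3 (log2 fold change 1.70, SE 0.07, adjusted p = 9.63e-07). Mme, which encodes the peptidase neprilysin, had too few counts to be tested.

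On the coupling side, the genes for inhibitory and stimulatory G proteins differed in direction. Gnas, the stimulatory alpha subunit used by Calcrl, fell to 568 ± 26.6 CPM in UV2, against 828 ± 19.9 CPM in bEnd.3 (log2 fold change -0.54, SE 0.07, adjusted p = 0.000231). Gna11, a Gq-type subunit, was lower as well, with a log2 fold change of -0.61 (SE 0.06). Gnaq, another Gq-type subunit, did not pass the test, at 144 ± 3.67 CPM in UV2 and 154 ± 3.44 CPM in bEnd.3 (adjusted p = 0.169). The inhibitory subunits Gnai1 (log2 fold change 0.70, SE 0.15) and Gnai3 (log2 fold change 0.64, SE 0.11) were higher in UV2, as was Gna13 (log2 fold change 0.76, SE 0.06). Gnai1 stood at 35.3 ± 4.09 CPM in UV2 and 21.7 ± 4.04 CPM in bEnd.3. Gnai3 stood at 262 ± 14.4 CPM in UV2 and 169 ± 24.0 CPM in bEnd.3. Gnai2, the third inhibitory subunit gene, did not pass the test, at 1016 ± 74.5 CPM in UV2 and 1006 ± 21.3 CPM in bEnd.3.

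Among adenylyl cyclases, which make cyclic AMP, Adcy4 rose to 869 ± 90.2 CPM in UV2, against 295 ± 19.3 CPM in bEnd.3 (log2 fold change 1.56, SE 0.10, adjusted p = 6.08e-06). Adcy9 fell to 8.37 ± 0.408 CPM in UV2, against 21.4 ± 5.15 CPM in bEnd.3 (log2 fold change -1.35, SE 0.18). Adcy3 fell to 0.330 ± 0.0558 CPM in UV2, against 1.05 ± 0.200 CPM in bEnd.3 (log2 fold change -1.66, SE 0.30). Adcy3 counts were few, at 9, 7 and 7 in UV2 replicates 1, 2 and 3. Adcy6, at 117 ± 5.96 CPM in UV2 and 130 ± 12.1 CPM in bEnd.3, did not pass the test (adjusted p = 0.136). Neither did Adcy7 (adjusted p = 0.187). Of the receptor kinases that end signalling, Grk5 (log2 fold change 0.30, SE 0.08) and Grk6 (log2 fold change 0.55, SE 0.07) were higher in UV2. Adrbk1, another such kinase, was lower (log2 fold change -0.41, SE 0.06). The beta-arrestin genes Arrb1 and Arrb2 did not pass the test, though Arrb2 was called lower without bEnd.3 replicate 1 (adjusted p = 0.0138). Crcp, an intracellular partner of the CGRP receptor, was higher by a log2 fold change of 0.23 (SE 0.08, adjusted p = 0.0256). Its call was lost with total counts (adjusted p = 0.0875) and without UV2 replicate 1, UV2 replicate 2 or bEnd.3 replicate 3 (adjusted p = 0.0728, 0.0835 and 0.0748).

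**Figure D5:**
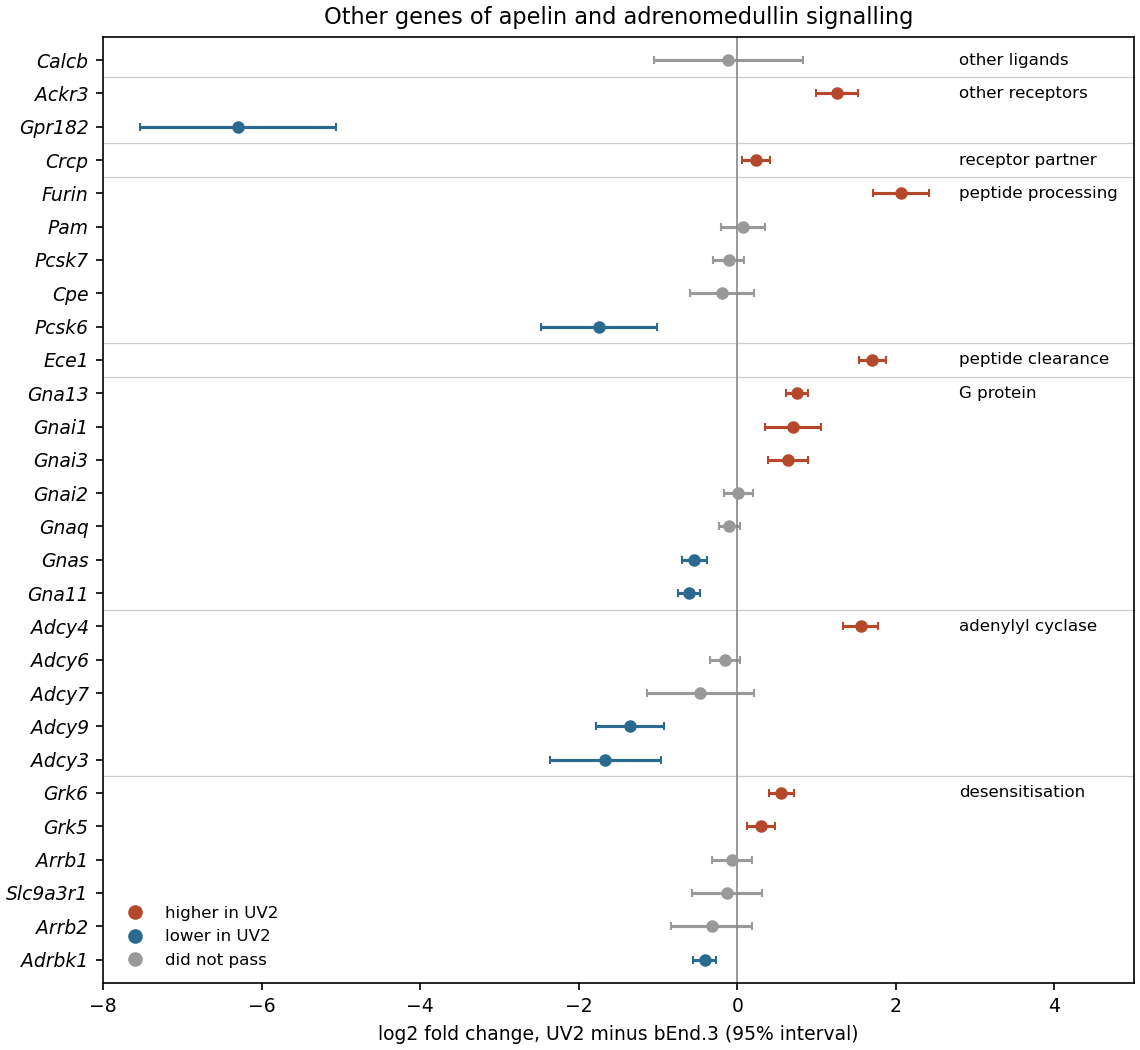
Log2 fold change, UV2 minus bEnd.3, with 95% intervals, of the 28 tested genes of the wider list, grouped by role from top to bottom. Red marks genes higher in UV2 (10), blue marks genes lower in UV2 (7) and grey marks genes that did not pass the test (11). Gpr182 is the lowest at -6.30 and Furin the highest at 2.06.

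Since Apln and Adm are known targets of hypoxia-inducible factors, 14 other such targets were set beside them. UV2 was higher at 6 of the 14, lower at 5 and neither at 3, beside 33.9% higher and 33.3% lower over all tested genes. Their median log2 fold change was -0.01, as it was over all tested genes. By more than 2-fold, 4 of the 14 were higher and 2 lower, beside 10.6% higher and 8.81% lower over all tested genes. Egln3, an oxygen-sensing hydroxylase, was the lowest, at 156 ± 16.3 CPM in UV2 and 691 ± 214 CPM in bEnd.3 (log2 fold change -2.15, SE 0.23, adjusted p = 0.000101). Car9, a carbonic anhydrase, was the highest (log2 fold change 5.84, SE 0.62, adjusted p = 0.0001). It held 73 counts in the UV2 libraries together and 1 in the bEnd.3 libraries together. The ratio of these pooled counts after scaling was 79.3 (95% counting interval 13.8 to 3176). That interval leaves out the spread between libraries.

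Finally, among 9364 genes that reached 10 CPM in their higher line, those whose log2 level followed each gene most closely over the 6 libraries were found by Pearson's r, as a description without a test. The lines overlapped at the genes named below for Adm and Ramp2 and were apart at those named for Apln, Aplnr, Calcrl and Ramp3, where the line difference enters r. For Apln they were Ccnd1 (cyclin D1, r = 0.998) and Mgst1 (r = 0.998), and for Aplnr they were Gga2 (r = 0.9996) and BC003331 (r = 0.999). Calcrl was followed most closely by Snapc3 (r = 0.999) and Brox (r = 0.997), Adm by Slc35d1 (r = 0.999) and Pus1 (r = 0.984), Ramp2 by Epc1 (r = 0.991) and Acox3 (r = 0.988), and Ramp3 by Mrpl10 (r = 0.986) and Lrrc20 (r = 0.983). With the line means removed, the deviations of Aplnr were followed most closely by those of Fuk (r = 0.998) and Gga2 (r = 0.997). Picked as the highest among 9364 genes over 6 libraries, such r can come near 1 with no link between the genes. Ccnd1 stood at 79.4 ± 33.4 CPM in UV2 and 731 ± 208 CPM in bEnd.3, while Gga2 differed far less than Aplnr, with 40.9 ± 4.70 CPM in UV2 and 66.8 ± 5.74 CPM in bEnd.3.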

How the data were processed

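Libraries were grouped by the cell line in their titles, from which replicate numbers were also taken. Trim Galore, STAR, RSEM and the build mm10 are named in the submitters' processing notes, without versions, and the annotation and strand setting are not given there. The authors deposited expected counts per gene symbol, not normalized, which were rounded to whole numbers. RSEM shares reads that fit several genes, and BALB/c reads can map less well to the C57BL/6 reference. Genes were kept by filterByExpr, leaving 12720 of 24411, scaled by TMM and fitted with line as the only term in edgeR's quasi-likelihood test (R 4.3.3, edgeR 4.0.16), on which glmTreat tested changes beyond 2-fold. The procedure was tested on simulated data. Alternatives were other scalings and filters, the replicate block, DESeq2 1.42.0, limma-voom (limma 3.58.1) and leaving out each library. Same-numbered libraries deviated together from their line means (correlations over genes of 0.116, 0.210 and 0.257). The numbers were therefore taken as pairs in the replicate block, on this check of the data alone. The main tests did not use the pairs. No library was a copy of another (chi-square per degree of freedom 11.3 to 38.4 within lines).

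Coordinates and transcript lengths are from GENCODE M21 on GRCm38. Figures were drawn with Python 3.11.15 and matplotlib 3.10.9. The genes and lists were chosen with earlier results of these data known. The rule for naming genes took the 7 genes, every called gene of the wider list that reached 1 CPM in its higher line, all its ligands and receptors, the highest and lowest called hypoxia targets, and the closest genes by Pearson's r of log2(CPM + 0.5). Genes named beyond it were chosen after their values were seen. From the wider list, 1 gene is not reported here.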

Additional observations from a re-analysis of the deposited data

How the results depend on the processing

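Apln, Aplnr and Calcrl were called lower under all 13 alternatives run (7 of method and 6 that left out a library), with log2 fold changes of -2.17 to -1.72 for Apln, -6.20 to -4.56 for Aplnr and -2.82 to -2.34 for Calcrl. Ramp3 was called in 10 of the 13, and the 3 that lost it each left out a UV2 library, with fewer samples in the fit (log2 fold changes over all left-out libraries -0.50 to -0.24). Ramp2 was called in none, and its log2 fold change turned to 0.01 (0.0095) without UV2 replicate 1 and to 0.02 (0.023) without bEnd.3 replicate 3, in a range of -0.109 to 0.023 over left-out libraries. Adm was called in none, at -0.71 to -0.03. With the replicate block, 4 of the 7 genes were lower and 0 higher, the wider list had 10 higher and 7 lower, 8682 genes were called, and no call among the 7 genes changed. Adm came nearest to a call there (adjusted p = 0.0713). Over all genes, 8538 were called, with 8094 to 9041 under alternatives of method and 7793 to 8742 with a library left out. Calls of the wider list were 9 to 10 higher and 6 to 10 lower. The difference in the Ramp2 share was 1.17 to 4.91 percentage points with a library left out and 3.70 without length. Depth limits statements on Ramp1, Apela, Calca, Calcr, Iapp and Adm2, where counts were at or near 0.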
